A study of Homo sapiens with 12 samples.

Results

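Peaks from immunoprecipitation (IP) with an antibody against 1-methylguanosine (m1G) were examined in 7 genes for short RNAs with strong secondary structure. The genes were RN7SL1, RN7SL2 and RN7SL3, which encode the 7SL RNA, RPPH1, RMRP, RN7SK and SNORD3A. They had been chosen by name with earlier results of these data known, and every peak inside the GRCh38 span of a gene was counted, also where another gene overlapped it. This gave 9 of the 13290 peaks in the deposited lists, namely 6 of 3705 MACS2 summits and 3 of 9585 MetDiff peaks. Peaks had been used to choose the genes, so the counts and values for the 7 genes are a description and carry no test.

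The series profiled PANC-1, a cell line established from a ductal adenocarcinoma of the human pancreas, in 4 groups of 3 libraries: m1G IP from TRMT5 knockdown cells, m1G IP from control cells, input RNA from TRMT5 knockdown cells and input RNA from control cells. TRMT5 methylates a guanosine beside the anticodon of tRNAs to m1G. It was depleted with siRNA for 4 days, and the labels call the control cells WT; both were transfected, and both are 1 cell line. The RNA was enriched for poly(A) tails, fragmented to an average of 100 to 200 bases, heated to open secondary structures and then immunoprecipitated with the antibody or kept as input. The labels' protocol also names a GFP antibody, and libraries made with it were not analysed here.

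The labels place all libraries in experiment 2, and which of them each list rests on is not stated. Neither has a column for a single library or for the knockdown set against the control, so the groups were not compared and the depth behind each peak is unknown. Whether replicates are separate cultures is not stated in the labels. Of 5 ductal and epithelial marker genes, KRT8, KRT18 and KRT19 had a MetDiff peak, KRT8 and KRT18 also had a summit, and KRT7 and EPCAM had neither; over all protein-coding genes, 21.8% had a MetDiff block and 9.46% a summit. The spans of KRT8 and KRT18 overlap, and the only summit of KRT18 lies in both. The lists hold called peaks and do not measure expression.

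The RNAs examined work as parts of ribonucleoprotein particles and fold into stable helices. 7SL is the scaffold of the signal recognition particle, which brings ribosomes with a nascent signal peptide to the endoplasmic reticulum; its 5′ and 3′ ends fold together into the Alu domain, the ancestor of the Alu repeats of the genome. RPPH1 encodes the RNA of RNase P, the enzyme that removes the 5′ leader from precursor tRNAs, and RMRP the related RNA of RNase MRP, which acts in ribosomal RNA processing. RN7SK encodes 7SK, which holds the elongation kinase P-TEFb inactive, and SNORD3A encodes U3, the box C/D small nucleolar RNA needed for the first cleavages of the ribosomal RNA precursor. None of these RNAs is a typical polyadenylated mRNA, and the share of their reads in the libraries was not analysed here.

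Peaks lay in 6 of the 7 genes, and the 6 summits all lay in the outer part of the gene span rather than in its middle. A summit is the single base at which the peak caller placed the maximum of a peak. RN7SL1, RN7SL2, RN7SL3, RPPH1, RMRP and SNORD3A had 1 summit each, and RN7SK had none. RPPH1, RN7SL2 and SNORD3A also had 1 MetDiff peak each. RN7SL1, RN7SL3 and RMRP had a summit only, and RN7SK (chromosome 6, 52995620 to 52995951, 332 bases) had no peak in either list. The nearest summit to RN7SK was 324544 bases away and the nearest MetDiff block 710939 bases away.

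A summit lay in 3.56% of all 59716 genes with a position in the RefSeq table, and a MetDiff block in 8.2% of them. Among the 1361 other genes of small non-coding classes, namely small nucleolar, small nuclear, small cytoplasmic, Y, vault and telomerase RNAs, 0.441% had a summit and 0.588% a MetDiff block. Among the 1750 other genes of the same length range, 217 to 341 bases, 0.171% had a summit and 0.114% a MetDiff block. The table includes genes that the cells may not express, and nothing is read from the gap, because the 7 genes were picked with their peaks known.

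The 3 genes for 7SL differed in the strength of their summits. Strength is given as the authors' −log10 of the q-value, which ranks the evidence for a peak and not its size. The RN7SL3 summit (chromosome 14, 49853892) had a −log10 q of 79.1 and ranked 40 of 3705. The RN7SL1 summit (chromosome 14, 49586585) had 77.8 and ranked 42. The RN7SL2 summit (chromosome 14, 49862805) had 15.02 and ranked 1634, just above the list median of 13.7. RN7SL3 and RN7SL2 lie 8636 bases apart and RN7SL1 lies 266737 bases below RN7SL3, so the 3 summits were separate entries and not 1 broad peak. The genes are near-identical copies, and reads can be shared between them and with their many pseudogenes. The treatment of such reads by the authors is not given, so the split of the signal among the 3 genes is uncertain.

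RN7SL1 (49586580 to 49586878, 299 bases) lies within the span of RPS29, which encodes a ribosomal protein. The summit list gives no strand, so the summit cannot be told apart between RN7SL1 and RPS29; it was the only summit in the 27723 bases of RPS29, which had no MetDiff peak. RN7SL2 (49862551 to 49862849, 299 bases) lies within the uncharacterised LOC105378179, whose only summit and only MetDiff peak were those inside RN7SL2, so these too may belong to either gene. RN7SL3 (49853616 to 49853914, 299 bases) was overlapped by no other gene of the table.

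The RNA of RNase P and the RNA of RNase MRP both had summits in the upper 5% of the list. RPPH1 (chromosome 14, 20343071 to 20343411, 341 bases) had a −log10 q of 57.6 at position 20343346, which ranked 98. RMRP (chromosome 9, 35657750 to 35658019, 270 bases) had 49.8 at position 35657978 and ranked 143. With RN7SL1 and RN7SL3, 4 of the 6 summits thus lay in the upper 5% of the whole list. Genes not classed as protein-coding, pseudogenes included, held 302 summits, some of them also covered by a protein-coding gene. Among these 302 summits in a non-coding gene, RPPH1 and RMRP fell outside the upper 5%, at 6.62% and 7.28%. RN7SL3 and RN7SL1 lay just inside it, at 4.64% and 4.97%. The U3 gene SNORD3A (chromosome 17, 19188016 to 19188232, 217 bases) had a weaker summit, 20.1 at position 19188021, with rank 1066. All 6 lay above the list median, between 1.1 and 5.79 times its value.

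**Figure D1:**
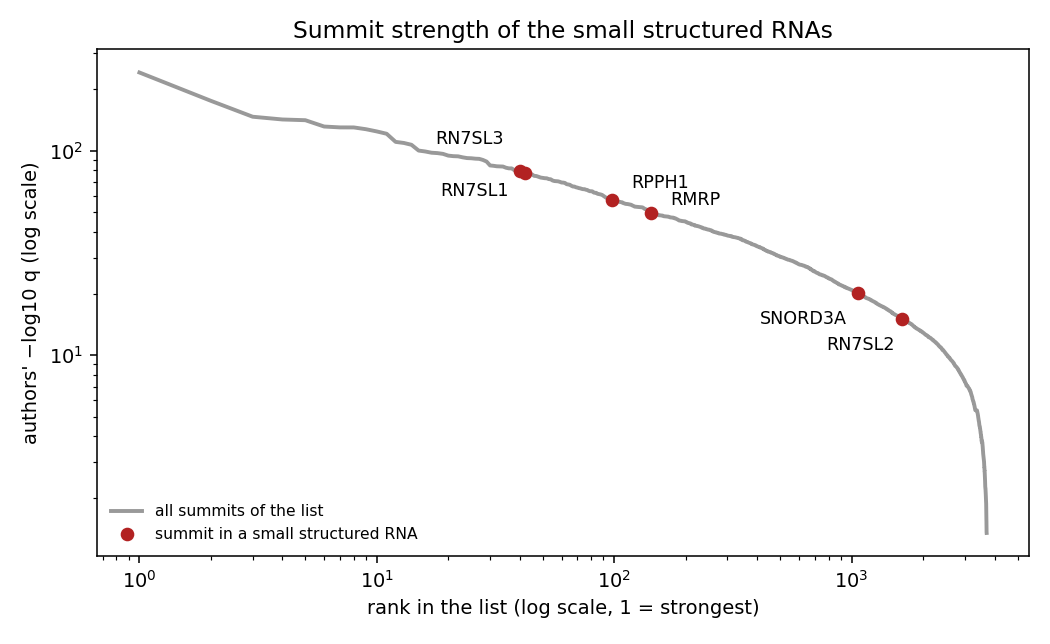
The authors' −log10 q of all 3705 MACS2 summits (grey line, log scale) is drawn against their rank (log scale), with the 6 summits in small structured RNA genes as red points. RN7SL3 and RN7SL1 sit together at ranks 40 and 42, RPPH1 and RMRP at 98 and 143, and SNORD3A and RN7SL2 further down at 1066 and 1634.

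Each of these 6 peaks had a single summit, going by names without the letter given to peaks with several summits; this held for 3256 of the 3705 summits (87.9%). No other summit lay near these genes. RN7SL2 and RN7SL3 were each other's nearest neighbours, with the summit in RN7SL3 at 8659 bases from RN7SL2 and the summit in RN7SL2 at 8891 bases from RN7SL3. For RN7SL1, RPPH1, RMRP and SNORD3A the nearest other summit lay between 27272 bases away at RMRP and 276987 bases away at SNORD3A.

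Within the RNAs, the summits lay between 6 and 66 bases from the nearer end of the gene span, or within the outer 2.01% to 19.4% of its length. For 3 genes the MetDiff peak carries a strand, that of an annotated gene whose ID was not matched to the small RNA. If the small RNA has the same strand, the nearer end was the 5′ end in all 3. Counted from that end, the summit of SNORD3A fell on base 6 of 217, that of RN7SL2 on base 45 of 299 and that of RPPH1 on base 66 of 341. The tables used here give no strand for the other 3 genes. The summit of RN7SL1 fell on base 6 from the lower-coordinate end, that of RN7SL3 on base 23 from the upper-coordinate end and that of RMRP on base 42 from the upper-coordinate end. As general knowledge of the human annotation, RN7SL1 is transcribed from the plus strand and RMRP from the minus strand, which would make both of these positions distances from the 5′ end. RNA fragments of the stated length reach over a large part of RNAs this short, so a summit position does not resolve a modified base.

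**Figure D2:**
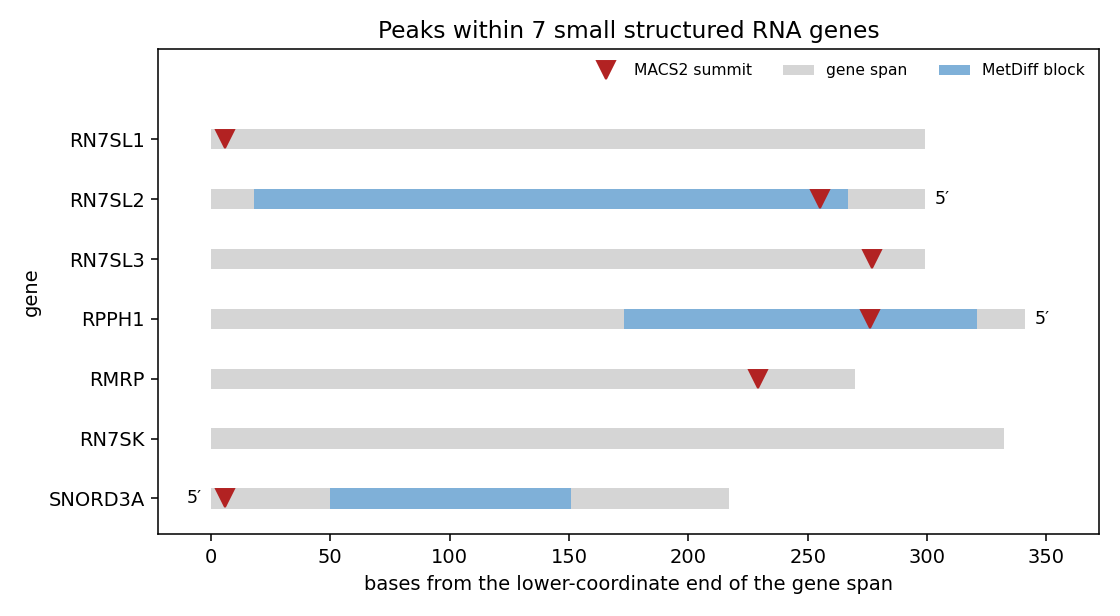
The 7 gene spans (grey bars) are drawn to scale in bases from their lower-coordinate end, with MACS2 summits as red triangles and MetDiff blocks in blue, and with the 5′ end marked on the strand of the MetDiff peak, whose gene ID was not matched to the small RNA. Summits sit near 1 end of 6 genes, at the end so marked in RN7SL2, RPPH1 and SNORD3A, and RN7SK is empty.

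The MetDiff peaks covered more of the RNAs and had low folds. Fold is the authors' ratio, taken here to be IP over input because of where the column stands in a table without a header; were it another contrast, its meaning would change. The RN7SL2 peak (chromosome 14, 49862569 to 49862817, minus strand) had a fold of 3.04 with a false discovery rate (FDR) of 2.88e-08. The RPPH1 peak (chromosome 14, 20343244 to 20343391, minus strand) had a fold of 3.39 with an FDR of 8.71e-05. The SNORD3A peak (chromosome 17, 19188066 to 19188166, plus strand) had a fold of 2.03 with an FDR of 1.82e-06. All 3 folds lay under the list median of 4.5, and 73.8%, 67.8% and 92.1% of the list had at least the fold of RN7SL2, RPPH1 and SNORD3A. By p-value the order was another one: 8.44% of the list had a p-value as low as that of RN7SL2 (1.1e-09), 13.1% as low as that of SNORD3A (1.1e-07) and 40.4% as low as that of RPPH1 (1.6e-05).

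**Figure D3:**
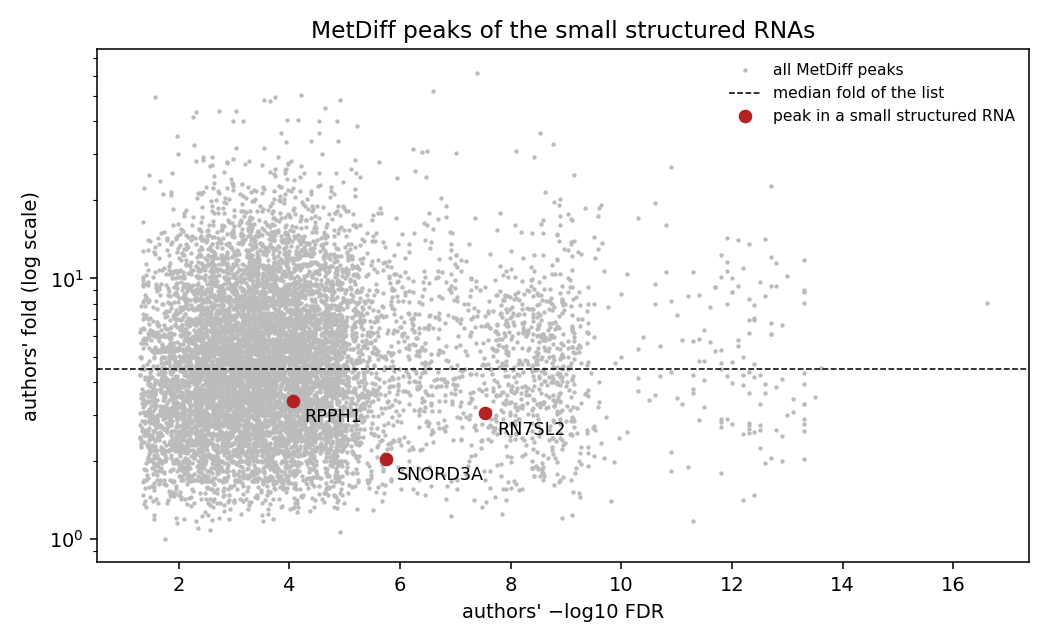
The authors' fold of each of the 9585 MetDiff peaks (log scale) is plotted against its −log10 FDR, with the peaks in RN7SL2, RPPH1 and SNORD3A in red and the list median of 4.5 as a dashed line. All 3 red points lie under the line, and RN7SL2 lies furthest to the right.

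The RN7SL2 peak spanned 249 bases, or 83.3% of the RNA, against a list median of 101 exonic bases, and 90.4% of the list was no longer than it. Counted from the 5′ end on the strand of the peak, as for the next 2, it ran from base 33 to base 281. The RPPH1 peak covered 148 bases (43.4%), from base 21 to base 168, and the SNORD3A peak 101 bases (46.5%), from base 51 to base 151. Each of the 3 was the only MetDiff peak under its Ensembl gene ID. The table used here does not match these IDs to names, so the peaks were placed by position alone, and another gene of that annotation at the same place cannot be told apart from the small RNA.

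In the genes with both kinds of peak, the summit lay inside the MetDiff block in 2 genes and outside it in 1 gene. The MACS2 list gives no extent of its peaks, so their overlap with the blocks is unknown. The summits of RN7SL2 and RPPH1 lay inside the MetDiff block of the same gene, while that of SNORD3A lay 45 bases before the block on the strand of the peak. That was 2 of the 6 summits of the set, while in the whole MACS2 list 655 summits (17.7%) lay inside a MetDiff block. Counts this small are not read as a difference. The summits of RN7SL3, RMRP and RN7SL1 lay 8677, 27123 and 34264 bases from the nearest block, which for RN7SL3 was the block in RN7SL2. MetDiff peaks were placed in exons of annotated genes, and whether RN7SL1, RN7SL3 and RMRP were among those genes is not known. The 2 strongest summits of the set thus lay in genes with no MetDiff peak.

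The pseudogenes of 7SL gave a further view of the position of the summits. The genome holds many such copies, and the RefSeq table lists 684 RN7SL genes besides the 3 examined, of which 5 had a summit (0.731%) and 1 a MetDiff block. RN7SL471P (chromosome 6, 28977481) had a −log10 q of 16.2, RN7SL4P (chromosome 3, 15738548) 11.7, RN7SL396P (chromosome 8, 119862691) 7.57, RN7SL128P (chromosome 6, 20421877) 7.41 and RN7SL767P (chromosome 3, 113632727) 4.65. The strongest of these was slightly above RN7SL2 and far below RN7SL1 and RN7SL3. RN7SL471P was overlapped by no other gene, and the other 4 lay within the spans of ANKRD28, LOC105375728, E2F3 and SIDT1.

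As in the 7SL genes, these summits lay close to an end of the span. They fell on base 7 of 299 in RN7SL471P, base 34 of 272 in RN7SL4P, base 27 of 196 in RN7SL396P, base 11 of 231 in RN7SL128P and base 24 of 196 in RN7SL767P, each counted from the nearer end. The nearer end was the upper-coordinate end in RN7SL128P and the lower-coordinate end in the other pseudogenes. No strand was given for them, so which end of the RNA it corresponds to is unknown. Over the 8 genes of the 7SL family with a summit, the distance ranged from 6 to 45 bases and from 2.01% to 15.1% of the span. The pseudogenes can share reads with the 7SL genes, so their positions are not independent of those in RN7SL1, RN7SL2 and RN7SL3. RN7SL471P, RN7SL4P and RN7SL128P were also the only 3 genes of 217 to 341 bases with a summit outside the set. The pseudogene with a MetDiff block, RN7SL657P, lies within MRPL20 and had a fold of 1.91 (chromosome 1, 1405601 to 1405700, FDR 5.89e-08).

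**Figure D4:**
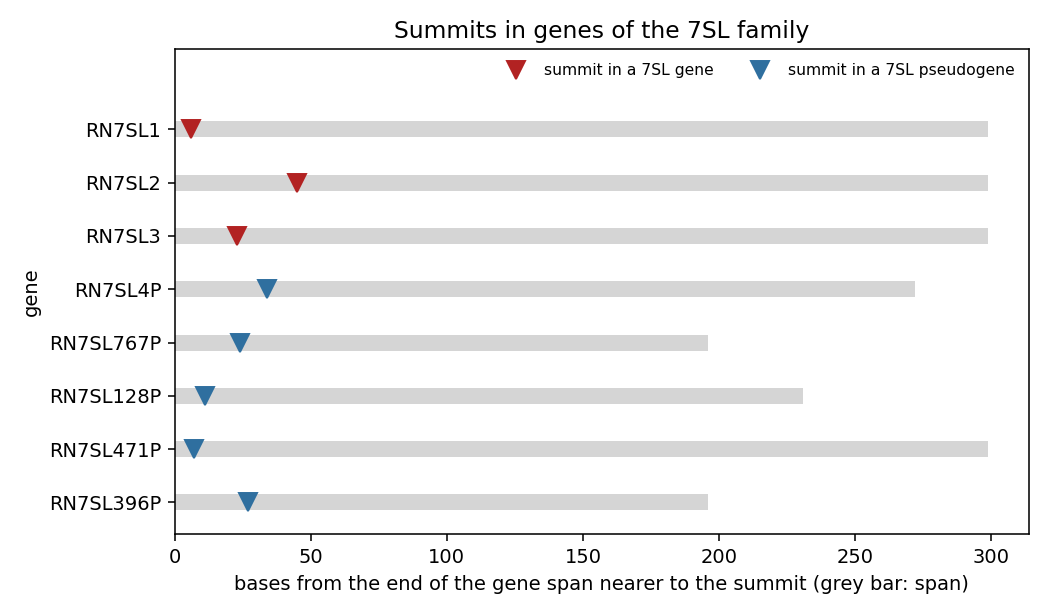
For the 8 genes of the 7SL family with a summit, the gene span (grey bar) and the summit (triangle) are drawn in bases from the end nearer to the summit, with the 3 genes in red and 5 pseudogenes in blue. All summits sit between 6 and 45 bases from that end, in spans of 196 to 299 bases. The nearer end is the lower-coordinate end in some genes and the upper-coordinate end in others.

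Copies of the other RNAs had no peak. No summit or MetDiff block lay in any of 293 RN7SK pseudogenes, in the RMRP pseudogene of the table, in 2 RPPH1 copies or in the U3 copies SNORD3B-1, SNORD3B-2, SNORD3C and SNORD3D. Of 26 further small structured RNAs, 0 had a peak in either list. These were the spliceosomal and histone-processing RNAs RNU1-1, RNU2-1, RNU4-1, RNU4-2, RNU5A-1, RNU5B-1, RNU6-1, RNU7-1, RNU11, RNU12, RNU4ATAC and RNU6ATAC, the Y RNAs RNY1, RNY3, RNY4 and RNY5, the vault RNAs VTRNA1-1, VTRNA1-2, VTRNA1-3 and VTRNA2-1, the telomerase RNA TERC, the nucleolar RNAs SNORD13 and SNORD118, and the Cajal body RNAs SCARNA2, SCARNA7 and SCARNA10. Peaks were rare in the background: 0.441% of the 1361 other genes of small non-coding classes had a summit and 0.588% a MetDiff block. For the 1750 other genes of 217 to 341 bases the shares were 0.171% and 0.114%. Groups of these sizes can lack a peak at such low shares, so nothing is read from the difference to other families. The absence of a peak does not show the absence of the RNA or of m1G.

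Other small nucleolar RNAs with a summit lay inside host genes. There were 6 of them, and another gene overlapped all 6. Those at least as strong as the weakest summit of the set were SNORD16 in RPL4 (22.9), SNORD59A in ATP5F1B (22.2), SNORD12C in ZFAS1 (21.2) and SNORD18A in RPL4 (19.5). The strongest of them was close to SNORD3A and far below RPPH1 and RMRP. Of the small nucleolar RNAs outside the set, 8 had a MetDiff block, and another gene overlapped all 8. Their folds ran from 2.33 to 15.7. Reads of the host transcript and of the small RNA cannot be told apart at these sites. RN7SL3, RPPH1, RMRP and SNORD3A were overlapped by no other gene of the RefSeq table. Their peaks are still not fully assigned, because RN7SL3 can share reads with its copies. The gene IDs of the RPPH1 and SNORD3A MetDiff peaks were also not matched to the small RNAs.

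Partner proteins, namely those of the particles, of the signal recognition particle receptor and of P-TEFb, were examined as a group of 35 genes. Of these, 7 had a summit and 12 a MetDiff peak, against 9.46% and 21.8% of the 20050 protein-coding genes. All 7 genes with a summit also had a MetDiff peak. The like share among all protein-coding genes with a summit was not computed, so nothing is read from this overlap. The 16 MetDiff peaks had folds from 1.65 to 9.11 with a median of 5.4. For the signal recognition particle, 2 of 8 genes had a summit and 2 a MetDiff peak. For RNase P and MRP, 1 and 2 of 11 had them, near the shares of all protein-coding genes. For 7SK and P-TEFb the counts were 1 and 3 of 7, and for U3 and box C/D particles 3 and 5 of 9. Counts this small are not read as a result about any particle. The group was not tested, and its background counts every protein-coding gene, expressed or not.

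Among 8 genes of the signal recognition particle and its receptor, 2 had peaks. SRP14, which encodes a protein that binds the Alu domain of 7SL, had a MetDiff peak with a fold of 7.75 (chromosome 15, 40038939 to 40039131, FDR 9.12e-04) and a summit of 11.1 at position 40039137, only 6 bases beyond the block. SRPRA, which encodes the receptor subunit that docks the particle at the endoplasmic reticulum, had a fold of 3.77 (chromosome 11, 126265749 to 126266293, FDR 2.69e-04) and 3 summits. Its strongest, 28.4 at position 126264649, lay 1100 bases from the block, and the other 2 (21.9 and 18.2) lay inside it. SRP9, SRP19, SRP54, SRP68, SRP72 and SRPRB had no peak.

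Of 11 protein subunits of RNase P and RNase MRP, RPP25 and RPP21 had peaks. RPP25 had 2 MetDiff peaks with folds of 6.38 and 6.25 and a weak summit of 2.32 (chromosome 15, 74956595), 30 bases from a block. RPP21 had 2 overlapping MetDiff peaks with folds of 1.78 and 1.65 (chromosome 6, 30345300 to 30345492 for the wider one), where the readthrough gene TRIM39-RPP21 also lies, and no summit. POP1, POP4, POP5, POP7, RPP14, RPP25L, RPP30, RPP38 and RPP40 had no peak.

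Of 7 protein genes of the 7SK particle and P-TEFb, 3 had a MetDiff peak and 1 of these a summit. MEPCE, which encodes the enzyme that caps the 5′ end of 7SK, had the highest fold of all the partner genes, 9.11 (chromosome 7, 100431318 to 100431417, FDR 0.0234). HEXIM1, the inhibitor that 7SK presents to P-TEFb, had a fold of 6.87 (chromosome 17, 45149302 to 45149602, FDR 5.75e-06) and a summit of 17.8 inside that block. CDK9, the kinase of P-TEFb, had folds of 5.39 and 3.39 and no summit. LARP7, HEXIM2, CCNT1 and CCNT2 had no peak.

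Of 9 proteins of the U3 and box C/D particles, 5 had a MetDiff peak and 3 a summit. FBL, which encodes the methyltransferase fibrillarin, had the strongest summit of all partner genes, 72.4 at position 39840826 of chromosome 19 (rank 54), together with 4 more summits between 13.2 and 40.8. Its MetDiff peak had a fold of 5.41 (39840677 to 39846379, FDR 2.95e-06), and the strongest summit lay 39 bases from the nearest exon block. NOP56, a core box C/D protein, had folds of 7.57 and 3.31 and a summit of 11.7 inside the weaker block. That weaker block also reaches into SNORD57, a small nucleolar RNA gene within NOP56. IMP4, which acts with U3 in the small subunit processome, had a fold of 5.8 and summits of 23.7 and 8.19. IMP3 and UTP18 had folds of 4.27 and 3.82 and no summit, and NOP58, SNU13, RRP9 and MPHOSPH10 had no peak. The span of MBTD1 overlaps that of UTP18, so the UTP18 peak may not be its alone.

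**Figure D5:**
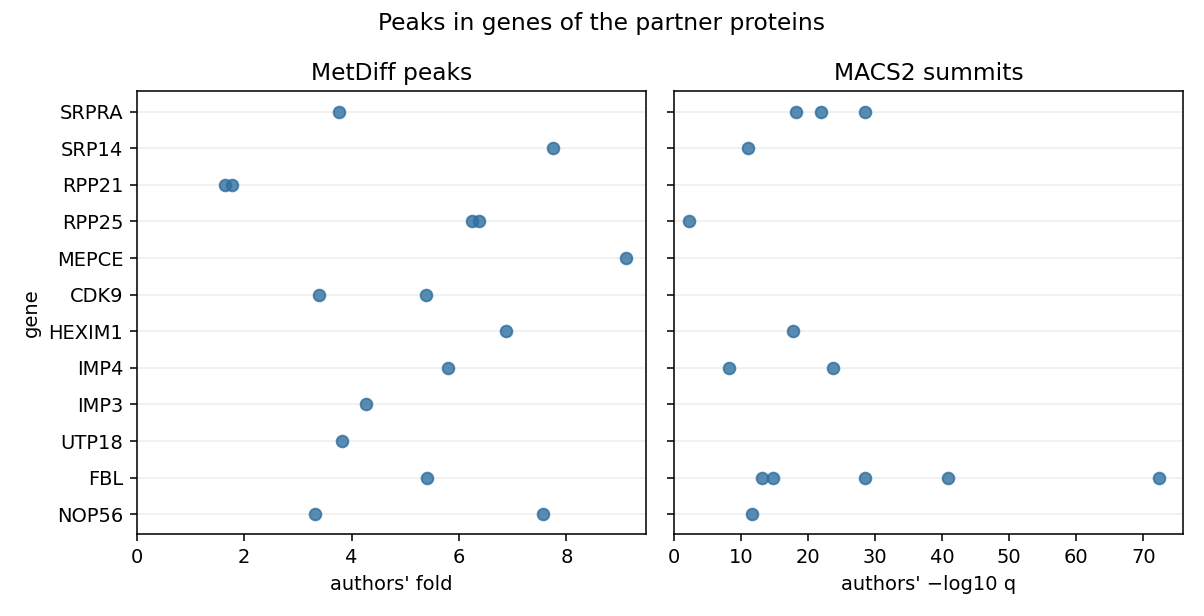
Each point is 1 peak in a gene of the partner proteins, by the authors' fold of the MetDiff list (left) and by the authors' −log10 q of the MACS2 list (right); only the 12 genes with a peak are drawn. MEPCE has the highest fold, 9.11, and FBL has 5 summits, the strongest at 72.4.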

How the data were processed

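RNA bound by an anti-m1G antibody and input RNA were sequenced from TRMT5 knockdown and control PANC-1 cells (12 libraries). The submitters' processing notes name STAR 2.7.1, MACS2 2.2.5, featureCounts, edgeR and DESeq2 with GRCh38, without stating their roles, their settings, any pooling or what was done with reads that map to several places. The deposited MACS2 list holds 1-base summits with a value read as −log10 q from its minimum of 1.35. The deposited MetDiff list holds exon blocks, a strand, a p-value, the log10 of an FDR and a ratio read as fold, units taken from the layout and the values.

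From these, positions (counted from 1) were intersected with gene spans of the RefSeq table (GRCh38.p14) in Python 3.11.15; MetDiff peaks counted with at least 1 block base inside. The intersection was tested on simulated data. Named genes are the 7 genes, their family copies with a peak, and other small RNAs with a summit as strong as the weakest of the 7. Lists of partner proteins, other small RNAs and epithelial markers were also named, as were genes overlapping any of these at a peak. Members and lists were chosen with earlier results of these data known. Alternatives were stricter values, a margin of 150 bases, and sole-gene naming. No test was run, and 1 row per peak leaves no replicate error.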

Additional observations from a re-analysis of the deposited data

How the results depend on the processing

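The set kept 6 genes with a summit and 3 with a MetDiff peak under stricter thresholds (−log10 q of at least 5 or 10, FDR under 0.01), with a margin of 150 bases and with at least 50 block bases inside. Where the gene had to be the only one at the peak, 4 genes kept a summit and 2 a MetDiff peak, because RPS29 and LOC105378179 overlap RN7SL1 and RN7SL2. Other small structured RNAs and family copies with a summit numbered 5, against 2 at a −log10 q of at least 10 and 1 as the sole gene. Ranked only among the 302 summits in a non-coding gene, the share of summits at least as strong was 4.97% for RN7SL1, 4.64% for RN7SL3, 6.62% for RPPH1 and 7.28% for RMRP, against 1.13%, 1.08%, 2.65% and 3.86% in the whole list. RPPH1 and RMRP thus left the upper 5%, and 2 of the 6 summits remained in it. Their −log10 q was the same in both rankings, and only the summits they were ranked among differed. Why summits this strong took a larger share of the non-coding ones was not tested. RN7SL2 and SNORD3A moved little, from 44.1% to 45.0% and from 28.8% to 29.1%. Partner genes with a summit numbered 6 or 7 and those with a MetDiff peak between 10 and 12 under the alternatives run. Each gene had 1 summit, so taking the strongest changed no position. No paired analysis was possible because the lists hold no column per library. Read depth is unknown.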
